A study of Homo sapiens with 40 samples.

Results

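The genes of antigen presentation and the interferon response were followed through single T47D cells prepared with 3 full-length RNA sequencing protocols. The set held 40 genes, chosen by name, of 60279 genes listed in the count tables, and all 40 symbols were matched by Ensembl identifier. They fell into 5 class I molecules, 6 genes of peptide supply and loading, 4 receptor and kinase genes, 6 transcription factors, 13 antiviral effectors and 6 other interferon-induced genes.

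T47D is an established human breast cancer cell line of luminal type. Cells at passage 10 were dissociated and sorted for EpCAM and CD49f, outside the gate for the leukocyte and endothelial surface markers CD45 and CD31. Single cells were placed into the lysis buffer of each protocol. Whether all cells came from the same culture is not stated. The 3 groups are G&T, which separates RNA from genomic DNA before reverse transcription, Takara, the SMART-Seq HT kit, and NEB, the NEBNext Single Cell/Low Input kit. They differed in lysis buffer, reverse transcription and library chemistry, the NEB libraries received more amplification cycles, and no interferon or other stimulus is named for any group. SMART-Seq3 cells were not analysed here.

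The cells of a protocol were sequenced in 1 run, and its effect cannot be told apart from that of the run. The number of plates is not stated. The single cells share that run and are no replicates of the protocol, so no test was made. Values are described by the lowest, the median and the highest cell and by a pooled level, and runs of 3 values follow the order G&T, Takara, NEB unless another order is named. The pooled level is the reads of a gene summed over the kept cells, scaled to 1000000 reads on genes (CPM), and its exact 95% Poisson interval covers counting error only, since reads without molecular identifiers are not independent molecules. Of 40 deposited cells 33 were kept, 11 for each protocol, with 658154 to 1166633 reads on genes in G&T, 818512 to 1287911 in Takara and 624772 to 963816 in NEB. The pooled totals were 9500268, 11716685 and 7973692 reads, at which a count of 0 allows up to 0.316, 0.256 and 0.376 CPM. Per cell, the median number of genes with reads was 5161 for NEB against 11253 for G&T and 10983 for Takara, and ERCC spike-ins took a median of 11.9%, 1.80% and 0.977% of the library in the same order.

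The label of the cells was checked against markers. All 9 luminal epithelial markers had reads in each protocol, with a summed level per cell from 3982 to 15853 CPM for G&T, from 10129 to 26998 CPM for Takara and from 1993 to 7331 CPM for NEB. The leukocyte markers CD3E, MS4A1, CD14, LYZ and NKG7 had no read in any kept cell, and ITGAM had 4, 2 and 2 reads. PTPRC, which encodes CD45, had 2 reads in 1 G&T cell and none elsewhere. The 3 endothelial markers had no read in Takara or NEB cells and reached at most 25.5 CPM in a G&T cell.

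Class I molecules carry peptides from inside the cell to its surface. A heavy chain, encoded by the HLA genes, pairs with beta-2-microglobulin (B2M), and the proteasome, the peptide transporter TAP and the chaperone tapasin provide and fit the peptide. Type I interferons bind a receptor made of IFNAR1 and IFNAR2, whose kinases JAK1 and TYK2 activate a complex that holds STAT2 and IRF9, and this complex binds the interferon-stimulated response element ahead of antiviral genes and of several class I genes.

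The letters of that element, GAAA, then any 2 bases, then GAAA, were looked for on both strands (the other strand reads TTTC, any 2 bases, TTTC) in the 250 bases before each gene start listed by RefSeq (build GRCh38.p14). A promoter was listed for 32 of the 40 genes. The letters occurred at a listed start of 18 of these, or 56.25%, against 3.71% of the 27305 genes in the table, and 12 of the genes held 2 or more matches at one start, some of them overlapping. By role they occurred in 2 of 4 class I genes, 4 of 6 genes of peptide supply and loading, 7 of 10 antiviral effectors, 5 of 6 other interferon-induced genes, and in none of the 3 receptor and kinase genes or 3 transcription factors with a listed promoter. A match is a description of the letters and not a measured binding site. The windows below are shown because their genes carry the levels described further on. IFI6, IFI27 and ISG15 were high in a single G&T cell, BST2 had the highest level per length in G&T and Takara, and IFIT3 had no read at all. Each is written 5′ to 3′ on the strand of the gene with the matches in capitals.
IFI6, chr1:27672256-27672368, minus strand: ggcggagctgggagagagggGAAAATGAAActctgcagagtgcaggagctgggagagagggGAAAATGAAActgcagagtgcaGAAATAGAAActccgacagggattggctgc
IFI27, chr14:94110608-94110670, plus strand: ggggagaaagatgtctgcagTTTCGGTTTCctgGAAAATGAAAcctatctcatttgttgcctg
ISG15, chr1:1013364-1013419, plus strand: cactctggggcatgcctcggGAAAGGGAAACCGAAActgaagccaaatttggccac
BST2, chr19:17405725-17405780, minus strand: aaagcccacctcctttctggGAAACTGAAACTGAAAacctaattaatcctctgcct
IFIT3, chr10:89327821-89327904, plus strand: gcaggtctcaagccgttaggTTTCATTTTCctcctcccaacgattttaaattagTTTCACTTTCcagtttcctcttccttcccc
The IFI6 window holds 3 matches and each of the others holds 2. IFI6 and IFIT3 both carry such letters. IFI6 had 382 reads in G&T, 352 of them in cell A2, while IFIT3 had none with any protocol.

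Reads were found on 36 of the 40 genes in the kept G&T cells, 35 in Takara and 29 in NEB, or 90%, 87.5% and 72.5% of the set. Among all listed genes 37.2%, 29.9% and 20.7% had reads. A G&T cell held reads on 17 to 25 of the 40 genes (median 23), a Takara cell on 22 to 27 (median 26) and an NEB cell on 7 to 18 (median 14), so every Takara cell held more of the set than any NEB cell. Thinning each cell to 624772 reads on genes gave medians of 21.9, 25.4 and 13.5 genes. All genes separated likewise, with 10624 to 11855 genes in a Takara cell and 4416 to 6719 in an NEB cell. Their medians after thinning were 11186, 10599 and 5087. Lower detection in NEB is thus not particular to the set. In every kept cell of a protocol there were reads on 16 of the genes with Takara and on 14 with G&T but on 3 with NEB, and only B2M and IFNAR1 had reads in all 33 cells. IFIT3, IFI44 and IFI44L had no read in any of them. The NEB cell C1, in which 7 of the genes had reads, was also the kept NEB cell with the fewest genes, 4416.

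**Figure D1:**
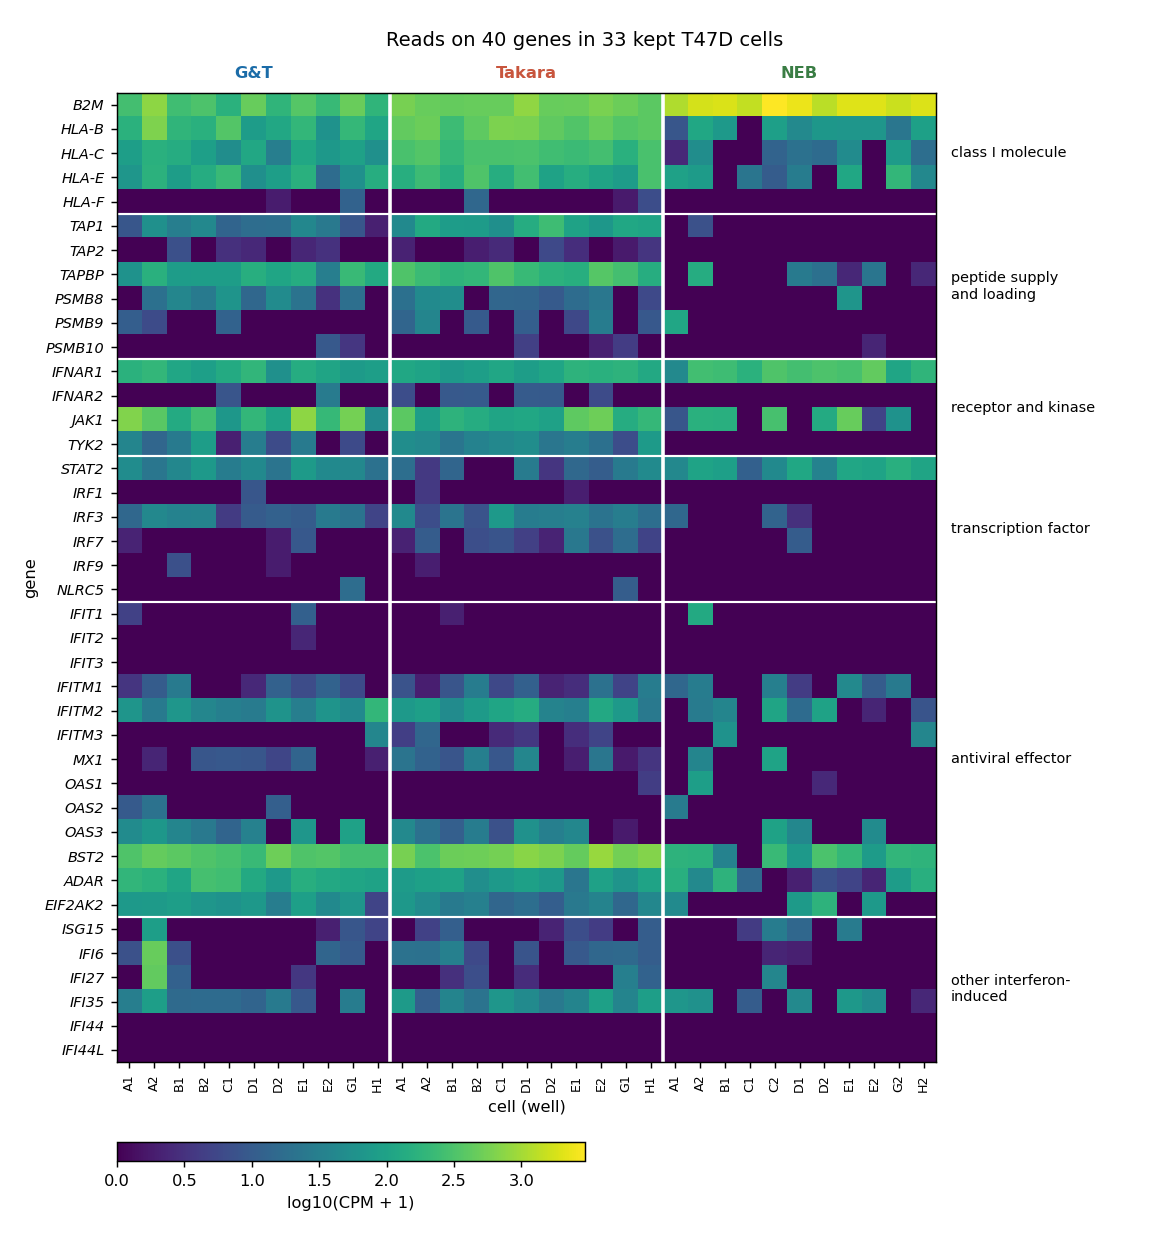
Level of each of the 40 genes (rows, grouped by role) in each of the 33 kept cells (columns, named by well and grouped by protocol), as log10 of CPM plus 1, with dark purple at 0. B2M and IFNAR1 are above 0 in every column, IFIT3, IFI44 and IFI44L are at 0 in every column, and NEB cells have reads on 7 to 18 of the genes against 22 to 27 in Takara cells.

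Together the 40 genes took 0.213% (G&T), 0.305% (Takara) and 0.287% (NEB) of the reads on genes. The near-equal shares of Takara and NEB were made up differently. B2M alone held 65.4% of the reads on the set in NEB, against 14.8% in G&T and 16.7% in Takara, and without B2M the set took 0.254% of gene reads in Takara and 0.0995% in NEB.

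Among the class I molecules, the light chain was highest in NEB while the heavy chains HLA-B, HLA-C and HLA-E were lowest there. B2M (ENSG00000166710, chr15:44711358-44718851, GRCh38) had a pooled level of 315 CPM in G&T, with an interval of 303 to 326, of 509 CPM in Takara, with 496 to 522, and of 1880 CPM in NEB, with 1850 to 1910. Over cells it ranged from 165 to 769 CPM in G&T (median 269), from 397 to 790 CPM in Takara (median 468) and from 1136 to 2963 CPM in NEB (median 1899). Every NEB cell lay above every cell of the other protocols.

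HLA-B, a classical heavy chain (ENSG00000234745, chr6:31353872-31367067), was at 200 CPM in G&T, 434 CPM in Takara and 59.8 CPM in NEB. Its cells ranged from 58.6 to 634 CPM in G&T (median 164), from 242 to 607 CPM in Takara (median 424) and from 0 to 117 CPM in NEB (median 65.8), so that every Takara cell exceeded every NEB cell while G&T overlapped both. HLA-C, the other classical heavy chain in the set (ENSG00000204525, chr6:31268749-31272130), was at 87.7, 269 and 21.4 CPM. Every Takara cell, from 161 to 343 CPM, lay above every G&T cell, from 29.1 to 157 CPM, and above every NEB cell, from 0 to 78.4 CPM. HLA-E, a non-classical heavy chain that presents signal peptides to natural killer cells, was at 109, 185 and 51.4 CPM, and its cells overlapped between all protocols. HLA-F, another non-classical heavy chain, had 10 reads in 2 G&T cells, 22 reads in 3 Takara cells and none in NEB. HLA genes are near-identical in part, so the split of reads between them is uncertain. Exons of HLA-B also overlapped other annotated genes over 47.3% of their merged length, and those of HLA-F over 28.0%.

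The number of B2M reads per HLA-B read does not depend on the total reads of a cell. This ratio was not corrected for the length (943 and 1536 bases) or GC content (39.1% and 58.9%) of the 2 canonical transcripts. The limits given above for HLA-B reads apply to it. Pooled, it was 31.4 in NEB against 1.57 in G&T and 1.17 in Takara. It ranged from 0.479 to 5.65 over G&T cells, from 0.751 to 1.82 over Takara cells and from 15.2 to 151 over the 10 NEB cells with HLA-B reads. The NEB range did not overlap the others.

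**Figure D2:**
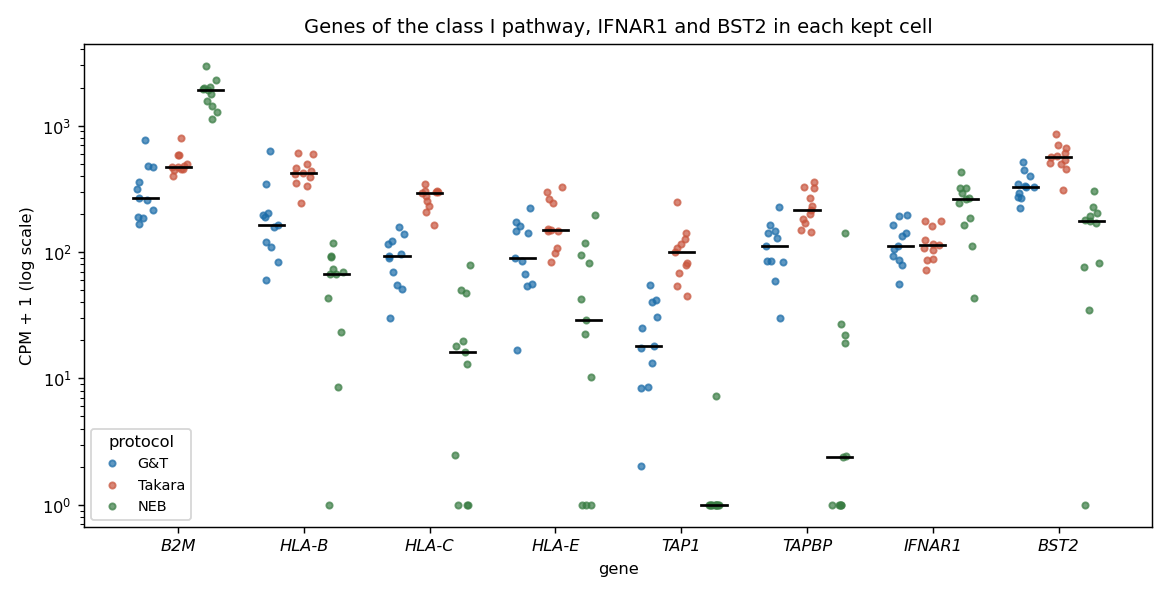
CPM plus 1 (log axis) of 8 genes in each kept cell, 11 points for each protocol and gene, with the median as a black bar. B2M and, at the median, IFNAR1 are highest in NEB, while the heavy chains, TAP1, TAPBP and BST2 have their highest medians in Takara, and most NEB cells sit at 0 CPM for TAP1.

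Of the genes that supply and load the peptide, TAP1 and TAPBP had the order of the heavy chains, highest in Takara and lowest in NEB. TAP1, a subunit of the peptide transporter (ENSG00000168394, chr6:32845209-32853816), was at 21.7 CPM in G&T (18.8 to 24.9) and at 103 CPM in Takara (97.5 to 109). In NEB it was at 0.627 CPM (0.204 to 1.46), and its 5 reads came from cell A2. It ranged from 1.04 to 53.8 CPM over G&T cells (median 17.1), from 44.1 to 248 CPM over Takara cells (median 99.8) and from 0 to 6.30 CPM over NEB cells, and all Takara cells lay above all NEB cells. TAP2, its partner subunit, stayed low, with 12 reads in 5 G&T cells, 14 reads in 7 Takara cells and none in NEB. TAPBP, which encodes tapasin, was at 111, 233 and 20.8 CPM. Its Takara cells, from 143 to 357 CPM, all exceeded its NEB cells, from 0 to 140 CPM, and 66.9% of its NEB reads came from cell A2.

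PSMB8, PSMB9 and PSMB10 encode the inducible catalytic subunits that replace PSMB5, PSMB6 and PSMB7 in the immunoproteasome. PSMB8 was at 23.6, 16.6 and 5.77 CPM in G&T, Takara and NEB, PSMB9 at 2.42, 9.56 and 9.41 CPM, and PSMB10 at 1.05, 0.768 and 0.125 CPM. The NEB values rested on single cells, with all 46 PSMB8 reads in cell E1, all 75 PSMB9 reads in cell A1 and the only PSMB10 read in cell E2. The constitutive partners were higher in 11 of 11 cells of each protocol for all 3 pairs. Per kb of canonical transcript, the pooled level of PSMB5 was 7.10 times that of PSMB8 in G&T, 27.9 times in Takara and 48.4 times in NEB. PSMB6 was 267 times PSMB9 in G&T, 101 times in Takara and 135 times in NEB, and PSMB7 was 496 and 1016 times PSMB10 in G&T and Takara. The PSMB10 values rest on few reads there as well, 8 in G&T cell E2 and 2 in G1. In Takara there were 4 in cell D1, 1 in E2 and 4 in G1. Exons of PSMB10 also overlapped another annotated gene over 39.4% of their merged length, and those of PSMB8 overlapped others over 17.3%.

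**Figure D3:**
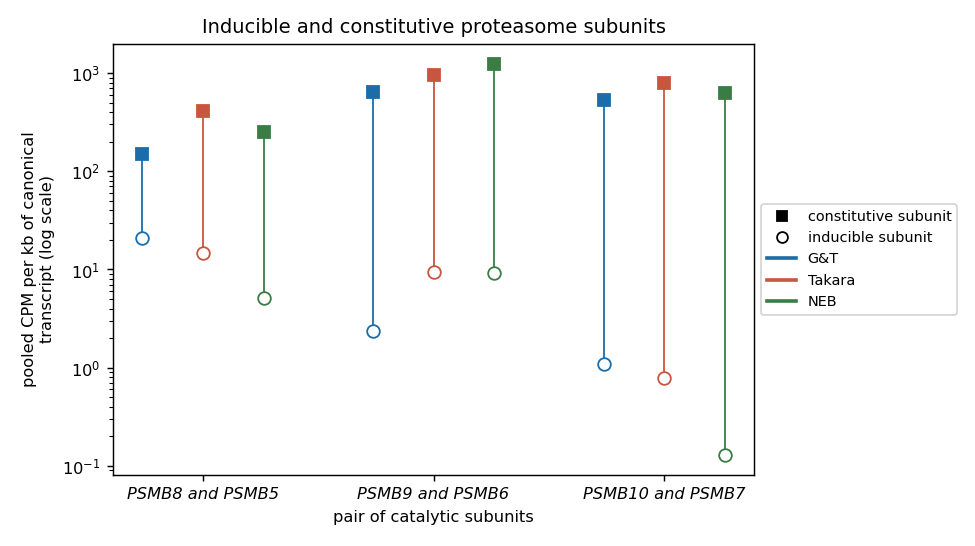
Pooled CPM per kb of canonical transcript (log axis) of the inducible proteasome subunits (open circles) and their constitutive partners (filled squares), joined by a line, in each protocol. In all 9 pairs the constitutive subunit is higher. The values of PSMB10 rest on few reads in each protocol, and that of NEB on 1 read.

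The receptor genes differed in how many cells had reads. IFNAR1 (ENSG00000142166, chr21:33324387-33359864) had reads in all 33 cells, at 118 CPM in G&T, 121 CPM in Takara and 245 CPM in NEB (interval 234 to 256). The cells ranged from 54.9 to 197, from 71.2 to 176 and from 42.0 to 431 CPM and overlapped between protocols. IFNAR2 had 33 reads in 2 G&T cells, 44 reads in 6 Takara cells and none in NEB, and 27.7% of its merged exon length was shared with other annotated genes, among them a readthrough with IL10RB. Of the kinases, JAK1 was at 283, 209 and 113 CPM. TYK2 (ENSG00000105397, chr19:10350533-10380608) was at 17.8 CPM in G&T and 35.8 CPM in Takara, where all 11 cells had reads, from 5.54 to 75.9 CPM (median 33.8). No NEB cell had a TYK2 read, so its pooled level in Takara was at least 95-fold higher than the NEB limit of 3 reads and its level in G&T at least 47.3-fold higher.

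STAT2, the transcription factor that brings the activation domain to the interferon complex (ENSG00000170581, chr12:56341597-56360203), was highest in NEB and lowest in Takara. Its pooled level was 84.4 CPM in NEB (78.2 to 91.0), 39.1 CPM in G&T (35.2 to 43.2) and 14.9 CPM in Takara (12.7 to 17.2). Its cells ranged from 18.7 to 76.4 CPM in G&T (median 40.6), from 0 to 44.4 CPM in Takara (median 12.4) and from 10.7 to 155 CPM in NEB (median 102), and the ranges overlapped. IRF3, which is present before infection and acts downstream of nucleic acid sensors, was at 18.1, 28.2 and 2.51 CPM. IRF7, an interferon-induced factor that amplifies interferon production, had 88 Takara reads, 8 G&T reads and 9 NEB reads, the last from 1 cell. IRF9, the DNA-binding part of the STAT complex, had 7 reads in G&T, 1 read in Takara and none in NEB, and 23.9% of its merged exon length overlapped another annotated gene. IRF1 had 5, 4 and 0 reads. NLRC5, the transactivator of class I genes, had 13 reads in 1 G&T cell, 12 reads in 1 Takara cell and none in NEB.

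Of the antiviral effectors, BST2, which encodes tetherin (ENSG00000130303, chr19:17402939-17405630), was at 568 CPM in Takara (555 to 582), 346 CPM in G&T (334 to 358) and 147 CPM in NEB (138 to 155). It ranged from 222 to 510, from 308 to 864 and from 0 to 305 CPM over the cells, and every Takara cell exceeded every NEB cell. Per kb of merged exons BST2 had the highest level of the 40 genes in G&T, 314 CPM per kb, and in Takara, 516 CPM per kb, ahead of B2M with 101 and 163 CPM per kb. In NEB the order was turned, with B2M at 602 and BST2 at 133 CPM per kb. Per kb of canonical transcript, a length chosen as an alternative after seeing the data, BST2 and B2M lay close, at 346 and 334 CPM per kb in G&T and at 568 and 540 in Takara. ADAR, the RNA-editing adenosine deaminase, was at 148, 76.6 and 54.4 CPM, and EIF2AK2, the kinase PKR, at 58.1, 28.8 and 34.5 CPM. IFITM2, a membrane protein that restricts viral entry, was at 61.5, 75.2 and 26.6 CPM, IFITM1 at 7.16, 10.3 and 13.8 CPM and IFITM3 at 3.89, 2.39 and 8.28 CPM. The IFITM genes are close paralogs, so reads may be split or lost between them.

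MX1, a GTPase that traps viral particles, was at 3.58, 12.6 and 13.4 CPM, with reads in 10 Takara cells, 7 G&T cells and 2 NEB cells. OAS3, which makes the second messenger that activates RNase L, was at 31.5, 20.2 and 18.4 CPM, with reads in 8, 9 and 3 cells. OAS1 had 70 reads in NEB, 4 in Takara and none in G&T, and OAS2 had 34, 0 and 18 reads. IFIT1, which binds foreign RNA ends, had 11 reads in 2 G&T cells, 1 read in Takara and 102 reads in NEB, IFIT2 had 1 read in G&T, and IFIT3 had none. In NEB all 102 IFIT1 reads and 69 of the 70 OAS1 reads came from cell A2, which also held 29 of the 107 MX1 reads, and the other 78 came from cell C2. OAS3 had 50.3% of its NEB reads in cell C2. None of these cells had reads on IFIT2, IFIT3, IFI44 or IFI44L.

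Reads concentrated in 1 cell were common in NEB for genes in general. Among genes with at least 10 pooled CPM, 23.1% had more than 50% of their NEB reads in 1 cell, against 1.34% in G&T and 0.353% in Takara. Of the set it was 4 of 17 such genes in NEB (TAPBP, IFIT1, MX1 and OAS3), or 23.5%, which is close to that background, and 0 of 21 in Takara. In G&T it was 2 of 20, IFI6 and IFI27, or 10.0%. Both reached 10 pooled CPM only through that 1 cell, A2, and were at 3.43 and 1.49 CPM in the other G&T cells. The filter and the count thus rest on the same reads, so the share is no result about the set.

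IFI6 and IFI27, which encode small membrane proteins, and ISG15, a ubiquitin-like modifier, are strongly raised by interferon in many cell types. In G&T cell A2, IFI6 stood at 462 CPM from 352 reads and the next G&T cell at 12.6 CPM. Reads on IFI6 occurred in 4 of the other 10 G&T cells. IFI27 stood at 428 CPM from 326 reads in the same cell, with the next cell at 10.9 CPM and reads in 2 of the other 10. ISG15 stood at 86.6 CPM from 66 reads, with the next cell at 7.61 CPM and reads in 3 of the other 10. Cell A2 was thus 36.8, 39.1 and 11.4 times above the next G&T cell for the 3 genes. Their summed level was 976 CPM in A2 against a median of 4.15 CPM over G&T cells, and it reached at most 45.1 CPM in a Takara cell and 67.4 CPM in an NEB cell. Among the 2176 genes with at least 100 CPM in A2, IFI27 and IFI6 ranked first and second by the ratio of A2 to the next G&T cell. That ratio exceeded 2-fold for 40 of the 2176. Both the limit and the ranking use the values seen before A2 was singled out, so the ranks are a description and no separate support.

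Of the 20 genes of the set with at least 10 pooled CPM in G&T, 9 had their highest value in A2, while 13.7% of all such genes did. The 9 were B2M, HLA-B, HLA-C, TAP1, IFNAR1, IRF3, IFI6, IFI27 and IFI35. IFI6 and IFI27 passed the 10 CPM filter only through A2, being at 3.43 and 1.49 pooled CPM in the other G&T cells. Their place in this count was therefore fixed by the filter. HLA-B was at 634 CPM in A2 and 345 CPM in the next cell, B2M at 769 and 476 CPM, HLA-C at 157 and 138 CPM, TAP1 at 53.8 and 41.0 CPM, and IFI35, which encodes an interferon-induced leucine zipper protein, at 87.9 and 29.7 CPM. HLA-E was at 171 CPM in A2, below cell C1 with 223 CPM, and HLA-F had no read in A2. MX1, OAS1, IFIT1, IFIT2 and IFIT3 were not high there. OAS2 was highest in A2 with 15 reads, while OAS1, IFIT1 and IFIT2 had no read in it. A2 had the most genes of the set among G&T cells, 25, and the lowest ERCC share, 1.37%, and mitochondrial share, 9.18%, of the kept G&T cells. The part of these in the result was not tested. Cell A2 was singled out after its values were seen.

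**Figure D4:**
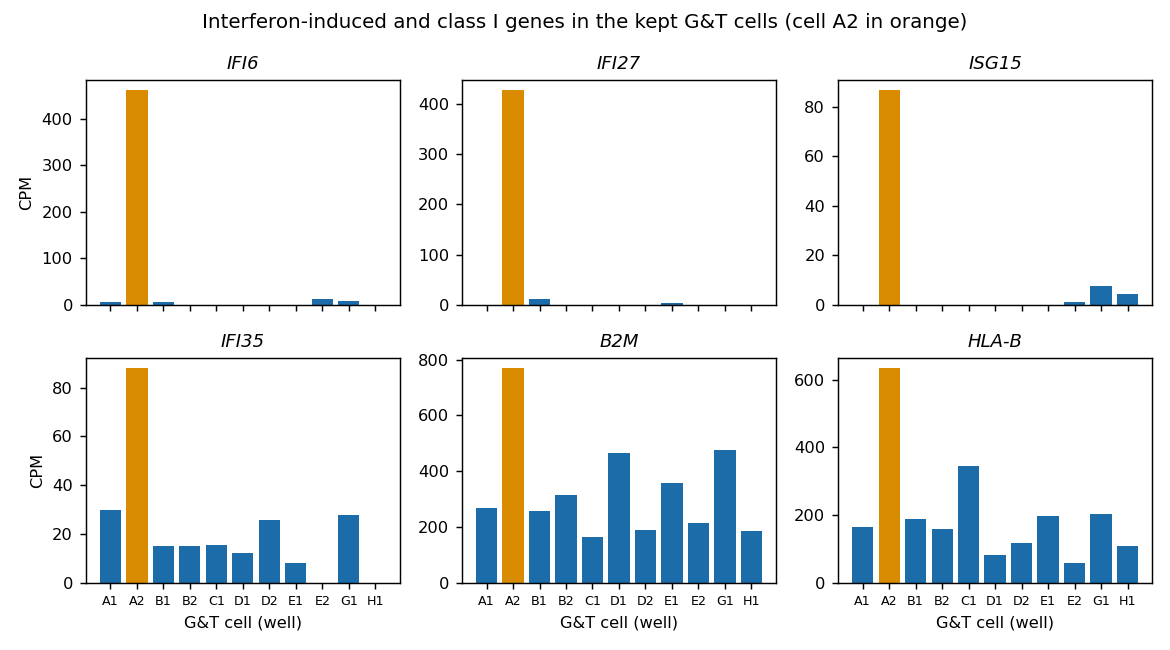
CPM (linear axes from 0, one scale for each gene) of 6 genes in the 11 kept G&T cells, with cell A2 in orange and the others in blue. IFI6, IFI27 and ISG15 are at most 12.6, 10.9 and 7.61 CPM outside A2, whereas B2M and HLA-B are present in every cell and highest in A2.

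The ratios between protocols, taken as log2 of pooled CPM plus 1, were counted past 2-fold for genes with at least 1 pooled CPM in either protocol. Between G&T and Takara, 5 of 33 genes of the set were higher in G&T (15.2%, against 25.7% of all genes) and 8 were higher in Takara (24.2%, against 17.0%). Those higher in Takara were HLA-B, HLA-C, TAP1, TAPBP, PSMB9, IRF7, MX1 and IFI35. Those higher in G&T were STAT2, OAS2, ISG15, IFI6 and IFI27, and 3 of these rested on cell A2. IFI27 had a log2 ratio of 2.52 with A2 and -1.36 without it, IFI6 of 1.74 and -1.48, and ISG15 of 1.16 and -0.85. OAS2 had reads only in cells A1, A2 and D2 of the kept G&T cells. Its log2 ratio was 2.19, and 0 with medians over cells. STAT2 had a log2 ratio of 1.34, and EIF2AK2 (0.99) and ADAR (0.94) came next among genes with reads in most G&T cells. HLA-C was the 1 gene of 33 with every Takara cell above every G&T cell (background 1.26%), and none had the reverse (background 0.669%).

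Between G&T and NEB, 18 of 34 genes were higher in G&T (52.9%, against 48.7% of all genes) and 7 were higher in NEB (20.6%, against 19.5%). These shares were near the background and are not a result about the set. Among genes with at least 10 CPM and reads in 6 or more cells, the largest log2 ratios were those of TAP1 (3.80) and IRF3 (2.45) toward G&T beside TYK2, and of B2M (-2.58), STAT2 (-1.09) and IFNAR1 (-1.04) toward NEB. B2M was the 1 gene with every NEB cell above every G&T cell (background 1.03%), and no gene of the set had every G&T cell above every NEB cell (background 3.31%). Several of the 7 genes higher in NEB rested on 1 cell. With each gene's highest cell left out in both protocols, PSMB9 went from -1.60 to 1.27 and IFIT1 from -2.68 to 0.43, and MX1 (-0.38) and OAS1 (-0.19) came within 2-fold. With medians over cells MX1 went from -1.65 to 1.21. Leaving mitochondrial genes out of the total put IFNAR1 (-0.94) and STAT2 (-0.99) within 2-fold, and using all deposited cells did so for HLA-C (0.95) and JAK1 (0.88). Without cell A2 the log2 ratio of IFI27 went from 2.98 to -0.90.

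Between Takara and NEB, 16 of 33 genes were higher in Takara (48.5%, against 43.7% of all genes) and 7 were higher in NEB (21.2%, against 24.3%), again near the background. Among genes with at least 10 CPM and reads in 6 or more cells of the higher protocol, the largest log2 ratios toward Takara were those of TAP1 (6.0) and HLA-C (3.59) beside TYK2, and toward NEB those of STAT2 (-2.43), B2M (-1.88) and IFNAR1 (-1.02). IFIT1 (-3.67) and OAS1 (-2.87), with NEB reads in 1 and 2 cells, were further toward NEB. OAS2 (-1.70) had all 18 of its NEB reads in cell A1, and its ratio was 0 without its highest cell or with medians over cells. IFIT1 had no read left in either protocol without its highest cell, and IFITM3 went from -1.45 to 1.35 with medians over cells. For 6 genes, HLA-B, HLA-C, TAP1, TAPBP, TYK2 and BST2, every Takara cell lay above every NEB cell, or 18.2% of the 33 against 8.41% of all genes. B2M was the 1 gene with the reverse (3.03%, against 1.61%). IFI6 had 2 reads in NEB and 133 in Takara, a log2 ratio of 3.30 on this scale. Without the added 1 CPM its ratio was 5.5, with a counting interval of 3.62 to 8.56. The set had a median log2 ratio of 0.87 for Takara over NEB, where all genes tested had 0.56. Its median was 1.05 for the ratio of G&T to NEB (all genes 0.92) and -0.09 for that of G&T to Takara (all genes 0.16).

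GC content moved with these ratios, and its part in them was not tested. The 6 genes with every Takara cell above every NEB cell had canonical transcripts of 57.1% to 61.4% GC, whereas B2M had 39.1%, IFNAR1 42.0% and STAT2 50.7%. Across genes with at least 10 pooled CPM in Takara or NEB, the log2 ratio of Takara over NEB had a Spearman correlation with GC of 0.661 over 8917 genes and of 0.818 over 22 genes of the set. Genes share the same libraries and are not independent. For G&T over NEB the correlation was 0.628 over 9077 genes and 0.685 over 23 of the set, and for G&T over Takara -0.185 and -0.478. Among all genes of 60% GC or more, 46.0% had every Takara cell above every NEB cell, as had 28.4% of those of 55% to 60%, the band of HLA-B, TAP1, TAPBP and BST2, against 0.758% of those below 40%. Some genes of the set lay apart from this pattern. STAT2 had a log2 ratio of -2.43 where the median of all genes of 50% to 55% GC was 1.43. The 5 genes of the set in that band, STAT2 among them, had a median of 0.127. IFIT1, with all of its NEB reads in cell A2, had a log2 ratio of -3.67. The median of all genes in its band, 40% to 45% GC, was -0.489.

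**Figure D5:**
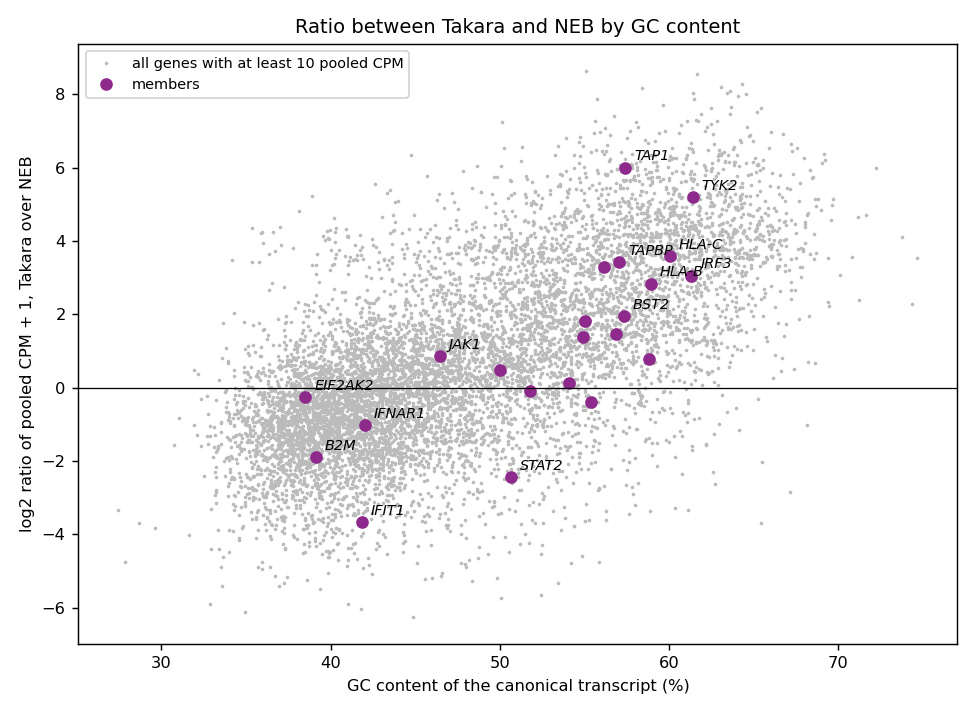
Log2 ratio of pooled CPM plus 1, Takara over NEB, against GC content of the canonical transcript (%), for all 8917 genes with at least 10 pooled CPM in either protocol (grey) and 22 genes of the set (purple). TAP1 and TYK2 lie at the upper right, B2M and IFNAR1 at the lower left, and STAT2 lies in the lower part of the grey cloud at its GC content.

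Another 72 genes of the same pathways were counted beside the set. Of these, 53 had reads in the G&T cells, 52 in the Takara cells and 35 in the NEB cells. None of the 6 interferon genes listed (ligands) had a read in any kept cell. Past 2-fold, 9 of 52 were higher in G&T (17.3%, against 25.7% of all genes) and 9 in Takara (17.3%, against 17.0%). Of those compared with NEB, 24 of 50 were higher in G&T (48.0%, against 48.7%) and 8 in NEB (16.0%, against 19.5%), and 22 of 45 were higher in Takara (48.9%, against 43.7%) and 7 in NEB (15.6%, against 24.3%). The genes with most reads in their roles were PDIA3, a chaperone of the loading complex, at 552, 803 and 614 CPM, PSMB6 at 524, 779 and 1030 CPM, STAT3 at 133, 137 and 92.7 CPM, TBK1, a kinase downstream of nucleic acid sensors, at 56.3, 84.0 and 102 CPM, UBE2L6, the conjugating enzyme for ISG15, at 28.5, 77.3 and 13.9 CPM, IFNGR2, a chain of the interferon gamma receptor, at 32.0, 57.4 and 3.89 CPM, and HLA-DMA, a class II chaperone, at 27.8, 28.6 and 31.2 CPM.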

How the data were processed

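The authors trimmed paired-end reads with Trim Galore and aligned them to GRCh38 with STAR. The deposited tables hold raw read counts per gene and cell from STAR, not normalized or filtered and without molecular identifiers. The annotation release and the strand column are not given in the sources used here, so reads of a gene and an overlapping antisense gene cannot be told apart.

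Cells outside the study's thresholds (at least 1000 genes and 600000 reads, at most 30% mitochondrial and 25% ERCC reads) were left out, which removed 7. The 92 ERCC rows and 4 rows of unassigned reads stayed out of the CPM totals. Lengths, GC content and overlaps came from GENCODE release 44, which matched 56104 of 60279 listed identifiers. Ratios used a pseudocount of 1 CPM. No test was made, since each protocol is 1 sample. The functions were tested on simulated data.

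All members were accounted for. Values were given for the 5 highest per kb in each protocol, the 3 largest ratios per pair and direction (10 CPM, 6 cells), genes without reads in a protocol, genes with more than 50% of their reads in 1 cell at 10 CPM, and the gene with most reads per pathway role. Other genes were added to complete their roles. Members and lists were chosen with earlier results of these data known.

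Alternatives were all deposited cells, 5 reads for detection, thinning, other denominators, medians over cells, leaving out each gene's highest cell, a pseudocount of 0.1 CPM, other filters and TMM scaling (edgeR 4.0.16, R 4.3.3). Leaving out G&T cell A2 was added after seeing the data. Scripts ran in Python 3.11.15 (scipy 1.17.1, pandas 2.3.3, numpy 2.4.6, matplotlib 3.10.9).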

Additional observations from a re-analysis of the deposited data

Results flagged for a closer look

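The 7 cells left out by the quality thresholds were not used in the comparisons, and 6 of them held reads on the 40 genes. There were 658 such reads in G&T cell C2, 1131 in G&T cell F1, 1827 in NEB cell B2 and 1529 in NEB cell F2. Takara cell C2 held 36, of which 14 were on IFIT2, a gene without a read in the kept Takara cells, 9 on MX1 and 9 on OAS3. Takara cell F1 held 7, all on PSMB10. These 2 Takara cells had only 15325 and 7990 reads on genes, and ERCC spike-ins took 91.3% and 96.7% of their libraries. Their reads on the set are therefore no measure of a cell. NEB cell F1 held 0.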

How the results depend on the processing

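Of 101 alternative values of the counts, shares and medians over the set, 81 moved by less than the spread between cells or stayed within 1.5 times the main count, and 20 moved further. Single genes did change sign, among them PSMB9, IFIT1, MX1, IFITM3, IFI6, IFI27 and ISG15, as given beside their ratios. Requiring 5 reads gave medians of 20, 23 and 10 genes per cell in G&T, Takara and NEB. Leaving out B2M gave 0.254% of gene reads in Takara and 0.0995% in NEB. The count of genes higher in G&T than in Takara was 8 without mitochondrial genes in the total, 2 with medians over cells, and 3 without each gene's highest cell, with at least 10 CPM, or without cell A2. The median log2 ratio of G&T over Takara was -0.96, -0.79 and -0.54 with medians, without the highest cell and with at least 10 CPM. With medians, 3 genes were higher in NEB than in G&T and 3 than in Takara, and the median log2 ratios over NEB were 2.15 for G&T and 2.72 for Takara. Without each gene's highest cell the latter was 1.84, with 3 genes higher in NEB than in Takara, and with at least 10 CPM there were 4. TMM scaling shifted all log2 ratios by -0.06, -0.10 and -0.04 for G&T over Takara, G&T over NEB and Takara over NEB, and brought HLA-E within 2-fold (0.97) between G&T and NEB. Apart from the removal of genes or cells that these settings make, the cause was not tested. No paired analysis was possible because each cell was prepared with only 1 protocol. The limits are 1 run per protocol, 11 cells each, and a count of 0 that allows up to 0.376 CPM.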
